A study of Mus musculus with 11 samples.

Results

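The regions described here are stretches of chromatin called open at E1, and not at E0, in dentate gyrus carrying an shRNA against c-Fos and that stood high in the lists of at most 1 control library at E1. They were chosen from peak calls. Each of the 11 ATAC-seq peak lists was cut to its 25145 highest-scoring peaks, and overlapping peaks of all lists were merged into 59298 regions. A region counted as called in a library that had one of these peaks in it. The 698 members (1.18% of the 59298) had a call in each of the 2 shRNA-cFos E1 libraries, in none of the 3 shRNA-cFos E0 libraries and in at most 1 of the 3 shRNA-Ctrl E1 libraries. They made up 34.7% of the 2012 regions (3.39% of all) called in both shRNA-cFos E1 and in no shRNA-cFos E0 library. The calls in those 3 groups therefore describe the members and test nothing.

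In ATAC-seq a transposase cuts open DNA and ligates adapters to it, and peaks are the places that it cuts most. c-Fos pairs with a Jun protein to form the transcription factor AP-1, and its gene is switched on within a short time of neuronal firing. AP-1 sites are found in many enhancers, the distal elements that raise the transcription of genes, and such elements can gain accessibility when neurons fire. Granule neurons are the main neurons of the dentate gyrus, where the study asked how activation changes chromatin.

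The mice were C57BL/6, 8 weeks old, and all had received an adeno-associated virus (AAV). In the shRNA-Ctrl groups it expressed a control shRNA and in the shRNA-cFos groups one that targets c-Fos. One dissected dentate gyrus of 1 animal gave each library, per the labels' protocols. There were 3 libraries of shRNA-Ctrl E0, 3 of shRNA-Ctrl E1, 3 of shRNA-cFos E0 and 2 of shRNA-cFos E1. E0 lists are named as sham in their deposited names, and the labels say no more of E1. The cells that took up the virus are not given in the sources used here, a dissected tissue holds cells of several types, and peak lists show neither how far c-Fos was reduced nor which cells were open. In such bulk samples, fewer open cells and less accessibility per cell cannot be told apart.

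The deposited lists held from 25145 to 78349 peaks on the chromosomes used, and read depth is unknown. The long lists were shRNA-Ctrl E1 replicates 1 (78349 peaks) and 3 (75908) and shRNA-cFos E0 replicate 2 (74432). The deposited names of shRNA-Ctrl E1 replicates 1 and 3 also lack a word that the other 9 carry, which the labels do not explain. Within shRNA-Ctrl E1, list length and this word cannot be told apart. In what follows, a rank is a peak's place in its list by score, with rank 1 the highest score, so a call means a rank up to 25145.

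Most members were modest peaks in the libraries that chose them. The median rank was 19522 in shRNA-cFos E1 replicate 1 (highest rank 6412) and 19267.5 in replicate 2 (highest rank 7634). Over all regions called in those libraries the medians were 12533 and 12503. No member lay among the 5000 highest-scoring peaks of either library. In 465 members (66.6%) the lower of both ranks was beyond 20000. The members thus crowd towards the threshold that defines them.

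At the threshold itself, neighbours differed little. The member nearest to it, at chr1:10091244-10091987 (mm9), ranked 25010 and 25145 in shRNA-cFos E1 replicates 1 and 2. The next were chr15:37835697-37836301 (ranks 25133 and 16845) and chr9:63687064-63687689 (25129 and 15321). Just outside lay chr8:9467793-9468259, with ranks 15236 and 25172, chr12:85141780-85142330, with 25173 and 20547, and chr11:36308306-36308938, with 21085 and 25185. In all, 1703 regions missed membership only because 1 of their 2 shRNA-cFos E1 peaks ranked below the threshold, and for 560 of them that peak ranked no lower than 30000.

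The median width of the members was 701.5 bp (quartiles 622.5 and 862.75), against 665 bp over all regions. The narrowest was 368 bp and the widest 4180 bp, at chr14:26276687-26280866. Of the 698, 593 (85.0%) were under 1000 bp wide, against 75.5% of all regions. Of the 1314 regions gained alike in shRNA-cFos but called in at least 2 shRNA-Ctrl E1 libraries, 1119 (85.2%) were under 1000 bp too. The 2 shRNA-cFos E1 peaks overlapped each other in all 698 members. Their centres lay a median of 54.25 bp apart, and the overlap was a median of 78.1% of the length covered by either. For all regions called in both libraries these medians were 59.5 bp and 80.9%.

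The group of libraries that the rule did not use is shRNA-Ctrl E0. There the members were called in 11.3%, 9.31% and 11.3% of cases in replicates 1, 2 and 3, a mean of 10.6% ± 1.16 (SD, n = 3). Over all regions these shares were 40.8%, 41.7% and 41.8%. All 3 libraries thus gave nearly the same low share. All regions include the 9716 called in all 11 libraries, which the rule excludes, so the low share is not independent of the rule. At least 1 shRNA-Ctrl E0 library called 174 members (24.9%; Wilson 95% interval 21.9 to 28.3), against 65.2% of all regions. For the other 524 members the control sham state had no call either.

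The closest comparison is with the 1314 regions that were gained at E1 in shRNA-cFos in the same way but called in at least 2 shRNA-Ctrl E1 libraries, here named shared regions. The shRNA-Ctrl E0 libraries called 16.9%, 11.6% and 14.6% of these, a mean of 14.4% ± 2.67 (n = 3). The members lay lower in 3 of 3 libraries, with a mean difference of -3.71 percentage points (SD 1.70). A two-sided exact sign-flip permutation test over the libraries gave p = 0.25, the smallest that 3 libraries allow, so the design cannot call this difference. For the same members and shared regions read in whole deposited lists it was -3.87 points (lower in 3 of 3 libraries, exact p = 0.25). The difference was smaller in some alternatives that merged and chose regions anew. With peaks of a score of at least 100 and lists not shortened it was -0.21 (lower in 1 of 3, exact p = 1). With the rule applied from the start to whole lists it was -0.73 (lower in 2 of 3, exact p = 0.5). Without shRNA-Ctrl E1 replicate 3 it was -1.61.

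The shared regions also scored higher, with median ranks of 14845.5 and 16129.5 in the shRNA-cFos E1 libraries. The part of rank in the difference was looked at only by setting regions of like mean rank side by side. Between ranks 15000 and 20000 the mean share called in shRNA-Ctrl E0 was 11.8% ± 1.84 (n = 3) for 332 members and 14.3% ± 3.68 for 531 shared regions. Between 20000 and 25145 it was 10.3% ± 0.690 for 290 members and 14.4% ± 1.06 for 217 shared regions. Between 10000 and 15000 it was 6.57% ± 5.33 for 71 members and 13.2% ± 2.40 for 410 shared regions. The members lay lower on average in each of these 3 bands. Between 15000 and 20000 the gap came mostly from shRNA-Ctrl E0 replicate 1, with 11.4% of members against 18.1% of shared regions. Replicates 2 and 3 gave 10.2% against 10.7% and 13.9% against 14.1%.

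**Figure D1:**
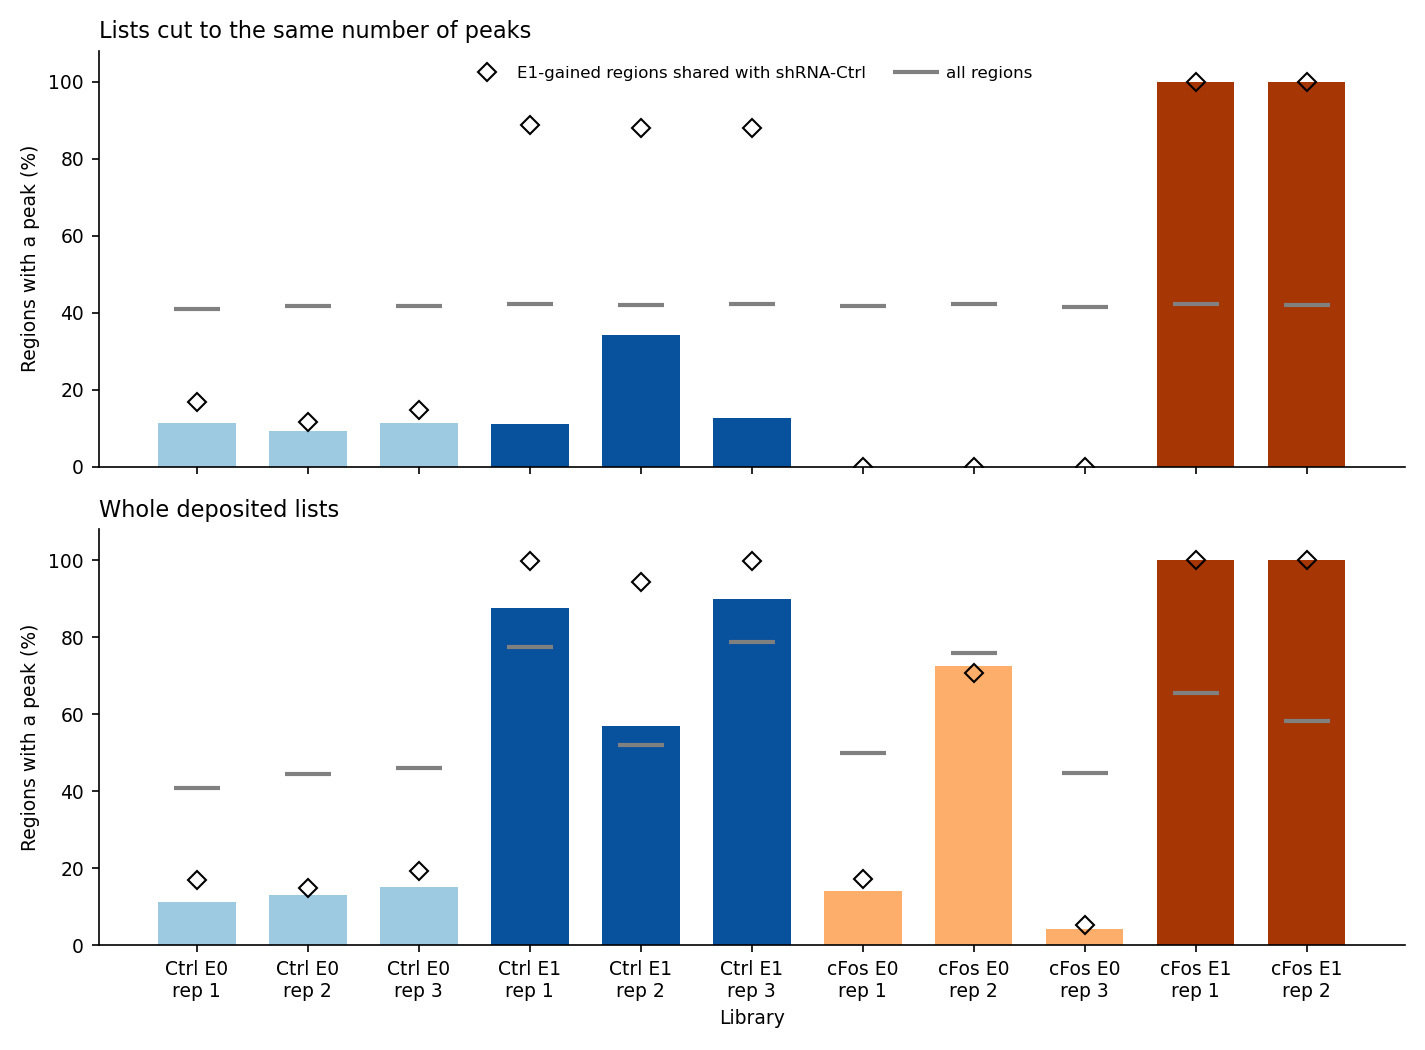
Share of regions with a peak (%, vertical axis) in each library (horizontal axis), with lists cut to the same number of peaks (upper panel) and with whole deposited lists (lower panel). Bars are the 698 members, coloured by group, diamonds the 1314 shared regions and grey dashes all 59298 regions; in the lower panel the bars of shRNA-Ctrl E1 replicates 1 and 3 reach 87.5% and 89.8%.

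The name under which these regions were chosen, gained mostly under c-Fos knockdown, does not hold for whole lists. Read in the deposited lists without shortening, 614 of the 698 members (88.0%; Wilson 95% interval 85.3 to 90.2) had a peak in at least 2 of the 3 shRNA-Ctrl E1 lists, against 74.3% of all regions. All 3 lists had a peak in 341 members (48.9%), close to the 47.3% of all regions, and no list had one in 18 members (2.58%), against 13.6% of all regions. At least 1 list had a peak in 680 members (97.4%), against 86.4% of all regions. The rule admitted 404 members with 1 shRNA-Ctrl E1 call, for which a peak in at least 1 list was fixed. Of the 294 members with no such call, 219 (74.5%) had a peak in at least 2 lists, near the 74.3% of all regions. The 88.0% over all members became 59.7% without shRNA-Ctrl E1 replicate 1 and 59.4% without replicate 3. The members are then redefined, and the shorter list of replicate 2 must hold the peak. What the members share is a place above the threshold in both shRNA-cFos E1 libraries and below it in most control libraries at E1, and not the lack of a peak in the latter. They are therefore called by their rule here.

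The peaks in question lay at the same place. The deposited peak of shRNA-Ctrl E1 replicates 1, 2 and 3 had its centre a median of 44.25, 44.25 and 45.5 bp from the mean centre of the 2 shRNA-cFos E1 peaks. It touched the stretch common to both of those peaks in 609 of 611, 396 of 397 and 626 of 627 members. Nearly all control peaks in these members thus shared DNA with both shRNA-cFos E1 peaks. A peak had only to share 1 base with the common stretch. Peaks of the E0 lists touched it in 96.2% to 100% of the members that had one, so this is not particular to shRNA-Ctrl E1.

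List by list, shRNA-Ctrl E1 replicate 1 had a deposited peak in 87.5% of members (77.3% of all regions), replicate 2 in 56.9% (51.9%) and replicate 3 in 89.8% (78.8%). In shRNA-Ctrl E0 the shares were 11.3%, 13.0% and 15.2% (all regions 40.8%, 44.5% and 46.0%). In shRNA-cFos E0 they were 14.2%, 72.6% and 4.30% (all regions 49.8%, 75.9% and 44.7%). The members thus lay above all regions in each shRNA-Ctrl E1 list and below them in each of the 6 E0 lists. The shRNA-Ctrl E1 shares include the members that each of these libraries called. Among the 294 members with no shRNA-Ctrl E1 call they were 78.2%, 29.6% and 81.6%. The rule forbids high ranks in shRNA-cFos E0 and in all but 1 of the shRNA-Ctrl E1 lists. Only the shRNA-Ctrl E0 calls were not used by it, and the regions that it excludes affect those shares too. The long list of shRNA-cFos E0 replicate 2, a sham library, also had a peak in most members, as it had in most regions of any kind.

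Lists of like length can be set side by side by reading each to the same rank. The starting points are set by the rule: at the threshold the shRNA-Ctrl E1 lists held 11.2%, 34.1% and 12.6% of members and the shRNA-cFos E0 lists none. The order of the lists below it starts from these values, so it is not read as a result. How much of that order the rule accounts for was not tested. Among the 50000 highest-scoring peaks, shRNA-Ctrl E1 replicates 1 and 3 reached 68.6% and 74.2% of members and shRNA-cFos E0 replicate 2 reached 55.9%, against 65.2%, 67.0% and 65.3% of all regions. From the threshold to that rank the 3 long lists gained 57.4, 61.6 and 55.9 percentage points of members, from unlike starting points. At the threshold they held 42.2%, 42.2% and 42.3% of all regions. Among the top 27000, a depth that 10 of the 11 lists have, the shRNA-Ctrl E1 lists reached 17.9%, 39.8% and 19.8% of members, below the 44.5%, 43.9% and 44.8% of all regions. The member share in shRNA-Ctrl E1 replicates 1 and 3 thus passed that of all regions between those depths.

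**Figure D2:**
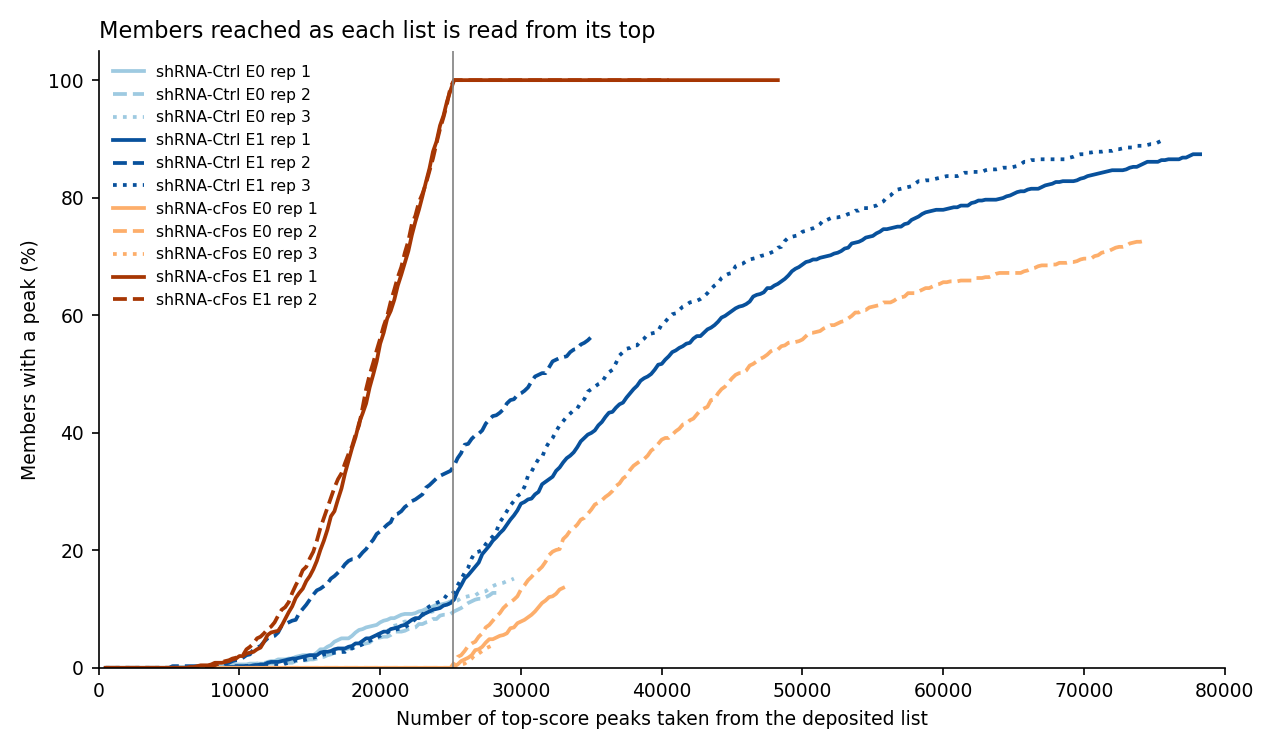
Share of the 698 members with a peak (%, vertical axis) against the number of top-score peaks taken from each deposited list (horizontal axis), 1 line per library, coloured by group, with line style for the replicate. The vertical line marks the 25145 peaks of the rule, where the rule sets the shRNA-cFos E0 lines at 0. The 3 long lists then rise to 87.5% and 89.8% for shRNA-Ctrl E1 replicates 1 and 3 and 72.6% for shRNA-cFos E0 replicate 2.

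In shRNA-cFos E0, 517 members (74.1%) had a peak in at least 1 deposited list, against 81.2% of all regions. Most came from replicate 2, since replicates 1 or 3 had a peak in 120 members (17.2%), against 60.2% of all regions. The shared regions gave similar values, 73.5% for any list and 21.0% for replicates 1 or 3. No deposited E0 list of either shRNA had a peak in 162 members (23.2%), against 9.34% of all regions and 21.4% of shared regions. In 138 of those 162 (19.8% of members, 21.4% of shared regions and 7.86% of all regions), at least 2 deposited shRNA-Ctrl E1 lists had a peak. In 81 of them all 5 E1 lists had one. Seen in whole lists, these 81 members had a peak in every E1 library and in no E0 library of either shRNA. They were 11.6% of members, while 257 shared regions (19.6%) and 1.74% of all regions had this pattern. The rule fixes its 2 shRNA-cFos E1 peaks in members and shared regions.

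Only 25 of the 698 members (3.58%; 0.322% of all regions) met the same rule when whole lists were read. The rule applied from the start to the whole lists gave 519 of 128823 regions, merged anew.

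The members were not alike in which control library came nearest to calling them. No shRNA-Ctrl E1 library called 294 members (42.1%), near the 40.4% of all regions. Of these, 232 were called in the 2 shRNA-cFos E1 libraries and in no other (0.391% of all regions), a count that the rule fixes. Of the 404 with 1 such call, 238 were called by replicate 2, 78 by replicate 1 and 88 by replicate 3, although the rule treats the 3 libraries alike. As shares of all members these are 34.1%, 11.2% and 12.6%, while over all regions the 3 libraries called 41.9%, 42.2% and 42.2% and among shared regions 88.0%, 88.8% and 88.1%. Of its 238 called members, replicate 2 ranked 103 above both shRNA-cFos E1 libraries. Replicates 1 and 3 did so for 26 of 78 and 20 of 88. Only a called member can rank so high, so these counts are not separate from the calls. Replicate 2 has the shortest list of its group, 35474 peaks against 40627 and 48262 in the shRNA-cFos E1 lists, and its list name carries the added word as theirs do. The part of these differences in the result was not tested.

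Of the 294 members with no shRNA-Ctrl E1 call, 276 (93.9%) had a peak in at least 1 deposited shRNA-Ctrl E1 list, against 86.4% of all regions, and 219 (74.5%) in at least 2, near the 74.3% of all regions. The 88 called by replicate 3 were called in shRNA-Ctrl E0 replicates 1, 2 and 3 at 17.0%, 13.6% and 20.5%, the highest of the 4 subsets in each library. The 294 with no call were lowest in each, at 9.52%, 7.82% and 9.18%.

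**Figure D3:**
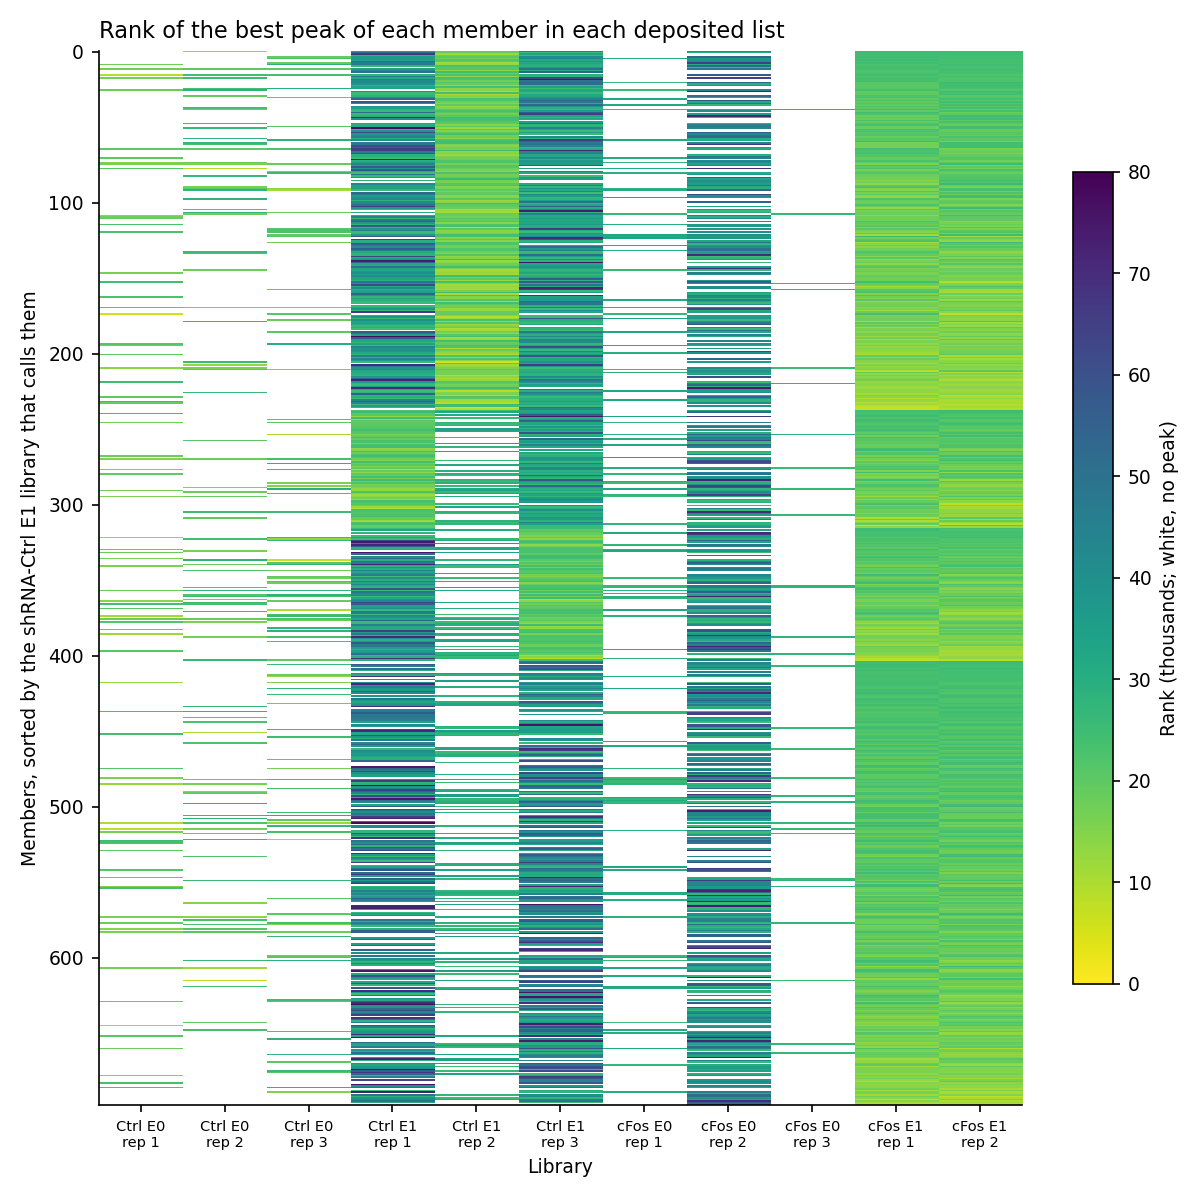
Rank of the best peak (colour, yellow for the highest scores, white where the deposited list has no peak) of each of the 698 members (rows) in each of the 11 libraries (columns). Rows are sorted by the shRNA-Ctrl E1 library that calls them, from the top the 238 of replicate 2, then 78 of replicate 1, 88 of replicate 3 and 294 with no such call; most E0 columns are white except shRNA-cFos E0 replicate 2, and the columns of shRNA-Ctrl E1 replicates 1 and 3 are mostly filled.

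The 10 members with the highest mean score percentile over both shRNA-cFos E1 libraries show this pattern. The percentile is that within the shortened list, and the first of the 10 reached 67.6. Replicate 2 of shRNA-Ctrl E1 called 7 of the 10, replicate 3 called 2, and 1 had no shRNA-Ctrl E1 call. In whole lists, 9 of the 10 had a peak in at least 2 shRNA-Ctrl E1 libraries (74.3% of all regions). No E0 library had a peak in 3 of them (9.34% of all regions).

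The first lay at chr15:86290331-86291616 (1286 bp). It ranked 7167 and 9141 in shRNA-cFos E1 replicates 1 and 2, 8511 in shRNA-Ctrl E1 replicate 2 and 43096 in replicate 3, and no other deposited list had a peak there. It was thus found in 4 of 5 E1 libraries and absent from the 6 E0 lists.

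The next, at chr14:101909436-101910628, ranked 8036 and 8991 in shRNA-cFos E1. It ranked 28393 and 24086 in shRNA-Ctrl E1 replicates 1 and 3, 26372 and 19271 in shRNA-Ctrl E0 replicates 2 and 3, and 46010 in shRNA-cFos E0 replicate 2. Peaks of control sham and control E1 libraries overlapped in rank here.

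The region at chr18:83386752-83387569 (818 bp) ranked 6412 and 10789 in shRNA-cFos E1. In shRNA-Ctrl E1 it ranked 27338, 5190 and 48866 in replicates 1, 2 and 3, and no E0 list had a peak. All 5 E1 libraries thus held it, with the highest rank of all in a control library.

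The region at chr5:110833868-110835265 (1398 bp) is the one of the 10 without any shRNA-Ctrl E1 peak. It ranked 9300 and 8698 in shRNA-cFos E1 and 50320 in shRNA-cFos E0 replicate 2, and the other 8 deposited lists had no peak in it. The rule fixes that the E1 ranks lie above the sham rank.

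The region at chr13:53537512-53538437 had no E0 peak. It ranked 12140 and 8622 in shRNA-cFos E1, and 25428, 25127 and 31038 in shRNA-Ctrl E1 replicates 1, 2 and 3. Its control ranks lay on either side of the threshold. The remaining 5 of the 10 lay at chr11:103067275-103067975, chr19:5821903-5823052, chr10:61084281-61085013, chr7:117858793-117859674 and chr6:81876939-81877869. All 5 had a peak in all 3 deposited shRNA-Ctrl E1 lists and in shRNA-cFos E0 replicate 2. Of all regions, 47.3% had the former and 75.9% the latter.

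Members with a peak in no other deposited list were 6 of 698 (0.860%), against 32 of all regions (0.0540%), a count the rule itself favours. The highest-scoring of them lay at chr1:80734092-80734923 (832 bp), with ranks of 16995 and 10458 in shRNA-cFos E1 replicates 1 and 2. The others by score lay at chr8:127544336-127546735 (2400 bp; ranks 20751 and 16952), chr5:112668247-112669124 (17280 and 21240), chr17:8019903-8020771 (24016 and 17393) and chr8:125329319-125329972 (22210 and 19866). The last of the 6, at chr7:71384506-71385129, is named though it falls outside the rule of 5, and ranked 24057 and 18538. Apart from the chromosome 1 region these were low-ranking peaks. The other 12 of the 18 members with no deposited shRNA-Ctrl E1 peak had a peak in at least 1 E0 list, and for 10 of the 18 shRNA-cFos E0 replicate 2 was among them.

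At the other end, 9 members (1.29%) were called in all 3 shRNA-Ctrl E0 libraries, against 23.4% of all regions and 1.60% of shared regions. These regions stood above the threshold in the control sham state and in shRNA-cFos E1 but not in shRNA-cFos E0. The highest-scoring lay at chr4:141219353-141220501. Its ranks were 20072, 15451 and 15536 in the shRNA-Ctrl E0 libraries, 31330, 18829 and 44355 in those of shRNA-Ctrl E1, 28752 and 43428 in shRNA-cFos E0 replicates 1 and 2, and 14120 and 18005 in shRNA-cFos E1. Control sham and shRNA-cFos E1 ranks overlapped there. The region at chr4:51104282-51104920 ranked 17858, 18690 and 22150 in the shRNA-Ctrl E0 libraries, 32545, 30709 and 18736 in those of shRNA-Ctrl E1, 27528 in shRNA-cFos E0 replicate 2, and 21223 and 13470 in shRNA-cFos E1. The next 3 lay at chr16:22656492-22657660, chr4:82451927-82452753 and chr1:30559964-30560527. In whole lists all 9 also had a peak in shRNA-cFos E0 replicate 2 and in at least 2 shRNA-Ctrl E1 libraries. Of all regions, 75.9% had the former and 74.3% the latter.

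The opposite set was read in the same way. In 359 regions called in all 3 shRNA-Ctrl E1, in no shRNA-Ctrl E0 and in no shRNA-cFos E1 library, at least 1 deposited shRNA-cFos E1 list had a peak in 290 (80.8%) and both had one in 129 (35.9%), against 72.6% and 50.9% of all regions. For the 294 members with no shRNA-Ctrl E1 call, the corresponding share with at least 1 of the 3 deposited shRNA-Ctrl E1 lists is the 93.9% above. The number and length of the lists differ between these readings, so no difference was drawn from them.

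The members were spread over the genome, with a share that differed between chromosomes. They were 2.42% of regions at chromosome 19 (28 of 1155; Wilson 95% interval 1.68 to 3.48), 2.17% at chromosome 7 (45 of 2073; 1.63 to 2.89), 1.89% at chromosome 9 (46 of 2433) and 1.86% at chromosome 5 (61 of 3288). They were fewest at chromosome 3, with 0.517% (22 of 4258; 0.341 to 0.781), and chromosome X, with 0.579% (11 of 1900). The highest and lowest of these shares were picked from 20 chromosomes. Their counting intervals treat regions as independent and do not cover variation between animals, so whether the chromosomes differ was not tested. On chromosome 7 the members were 55.6% of the regions gained at E1 in shRNA-cFos, at chromosome 3 18.8%, and over all chromosomes 34.7%. Across the 20 chromosomes the share of members and that of shared regions had Pearson's r = 0.0952, given as a description, since both are taken from the same libraries and regions.

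**Figure D4:**
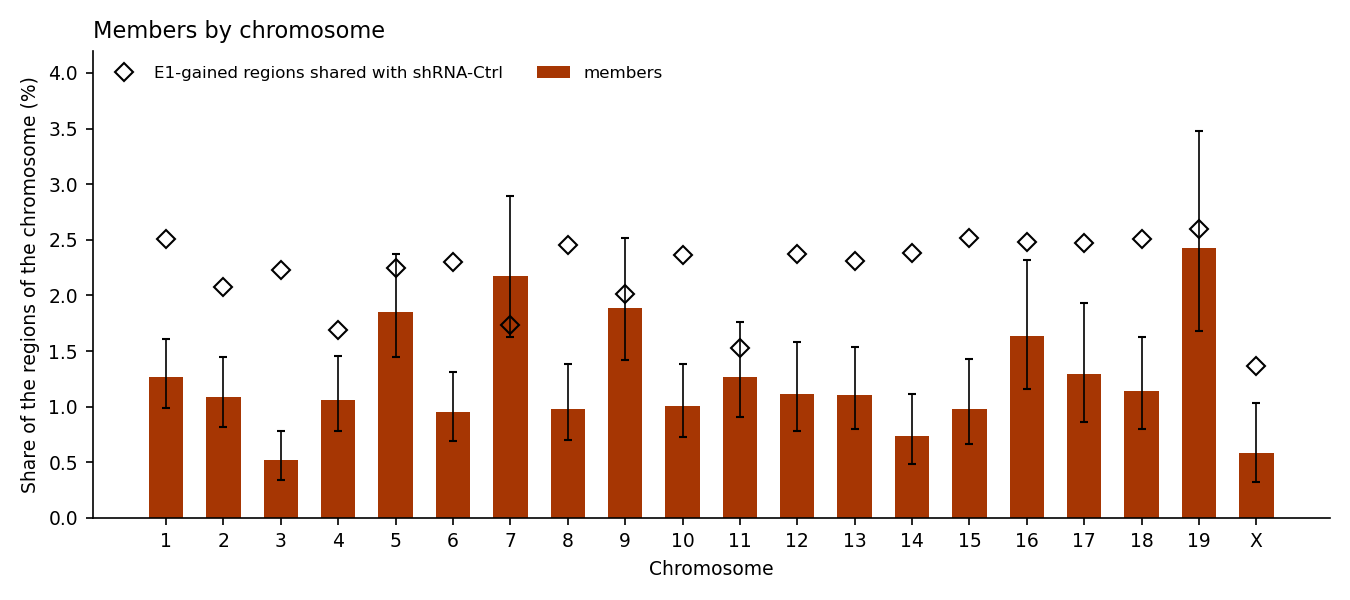
Share of the regions of each chromosome (%, vertical axis) that were members (bars, with Wilson 95% intervals for counting error) or shared regions (diamonds), by chromosome (horizontal axis). Member shares run from 0.517% at chromosome 3 to 2.42% at chromosome 19, while the diamonds lie between 1.37% and 2.60%.

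Most windows with a member held only 1. Of 2551 windows of 1 Mb with any region, 540 held a member, 415 of them 1, 98 of them 2 and 27 of them 3 or more. The window with most lay at chr19:28000001-29000000, with 6 members among 33 regions and no shared region. Of its 6 members, the one at 28483053 to 28483753 ranked 17452 and 16631 in shRNA-cFos E1 and 33553, 15661 and 35869 in shRNA-Ctrl E1, with no E0 peak. Another, at 28716727 to 28717717, ranked 17919 and 13218 in shRNA-cFos E1 and 22181, 28171 and 29459 in shRNA-Ctrl E1, and was called in shRNA-Ctrl E0 replicates 2 and 3 at ranks 24821 and 25093. Every one of the 6 had a peak in at least 1 deposited shRNA-Ctrl E1 list, as had 97.4% of members and 86.4% of all regions. Windows with 4 members lay at chr5:126000001-127000000 (17 regions), chr8:121000001-122000000 (30) and chr1:156000001-157000000 (45).

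Regions called in all 11 libraries, 9716 in number, served as landmarks of open chromatin common to all animals. The members lay a median of 69848.5 bp from the nearest of these, against 80861 bp for shared regions and 74281 bp for all regions. The quartiles of the members, 25399 and 185138 bp, covered the medians of the others. The nearest region of any kind was a median of 8406 bp away for members, 9808 bp for shared regions and 10994 bp for all regions. The nearest other member was a median of 764827 bp from members, against 1182640 bp for shared regions and 1328460 bp for all regions. For the nearest other shared region these medians were 507589, 432361 and 602405 bp. These differences in distance were not tested.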

How the data were processed

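Per the submitters' processing notes, reads were aligned with Bowtie2 to the mouse build mm9, and the deposited peak names carry the name of the caller MACS. Filters, transposase shift and caller settings are not stated in these sources. The authors deposited 1 list of peaks per library, with a score from 50 to 3100 of unstated scale, which was used here for ranks within lists and for 1 alternative with a minimum score.

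Chromosome Y (554 peaks) was left out, and chromosomes 1 to 19 and X were kept. Each list was cut to the length of the shortest (25145, ties in file order), peaks sharing 1 bp were merged, and positions are 1-based. Members, comparison regions and named regions were chosen with earlier results of these data known, and readings at other list depths after seeing the data. Regions named are the 10 members of highest mean score percentile in shRNA-cFos E1, up to 5 with no other peak, up to 5 called in all shRNA-Ctrl E0 libraries, those next to the threshold and the fullest 1 Mb windows. The 1 difference tested used an exact sign-flip permutation over libraries. Wilson 95% intervals cover counting error only. No mm9 sequence or annotation was used here, so regions carry no gene names or motifs. The code for merging and calls was run on simulated lists with known members, which checks the code only. The code ran in Python 3.11.15 with pandas 2.3.3, numpy 2.4.6, matplotlib 3.10.9 and scipy 1.17.1.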

Additional observations from a re-analysis of the deposited data

How the results depend on the processing

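The 698 members of 59298 regions became 404 of 31688 with the 15000 top-score peaks of each list. They became 202 of 64414 with a score of at least 100 and lists not shortened. With no call allowed in shRNA-Ctrl E1 they were 294 of 59298. The other 6 alternatives gave 519 (of 128823, whole lists) to 953 (of 59298, with 50% of a region covered). The number of regions differed between settings, so these counts are not like for like. Leaving out 1 library gave 698 to 2397, the latter and 2391 without shRNA-cFos E1 replicates 1 and 2, when a single library has to call a region. The share of members with a peak in at least 2 deposited shRNA-Ctrl E1 lists (88.0%) was 99.8% with 15000 and 95.2% with 20000 peaks, 90.7% with 50% of a region covered and 74.5% with no shRNA-Ctrl E1 call allowed. With 1 library left out, an alternative added after seeing the data, it ran from 59.4% to 88.8%. Where not stated, the cause was not tested. The mean difference between members and shared regions in shRNA-Ctrl E0 stayed below 0 in all 20 alternatives, from -5.51 to -0.21 points. At -0.21, with a score of at least 100, the members lay lower in only 1 of 3 libraries. No exact permutation p could fall below 0.25, the smallest that 3 libraries allow. No paired analysis was possible because replicate numbers could only pair libraries of different groups, and no test here compares groups; the 1 test already pairs both region sets within each shRNA-Ctrl E0 library. The comparisons of an AP-1 motif and of gene lists, which need mm9 sequence or annotation, were not run.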
